A study of Mus musculus with 21 samples.

Results

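The comparison described here set Paneth cells of germ-free mice, which had never carried microbes, against those of mice given antibiotics for 3 weeks. Both groups were on purified water. Its members were chosen by their labels alone and were the 3 germ-free libraries and the 4 antibiotics libraries on Milli-Q water, 7 of the 21 bulk RNA-seq libraries in all. The study's methods name C57BL/6J mice and a library per mouse, and both groups drank Milli-Q water for 7 weeks. The antibiotics group was housed under specific pathogen free (SPF) conditions and received broad-spectrum antibiotics for the last 3 of those weeks, whereas the germ-free group received none. Paneth cells were sorted from the small intestine by FACS as CD24+ c-Kit+ cells without CD31, CD45 or TER119, and stranded mRNA libraries were made from their total RNA. The other 14 libraries were 3 of SPF mice on Milli-Q water, used below as background, and 11 of mice on water with zinc sulfate at 200 mM, as the labels state it. The time without microbes, the exposure to the drugs and the housing (germ-free or SPF) differ together between the groups and cannot be told apart.

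Paneth cells sit at the base of the small-intestinal crypts beside the stem cells. They package α-defensins, lysozyme and other antimicrobial proteins into secretory granules and release them into the crypt, and they also present Wnt and Notch ligands to their stem cell neighbours. Because they make protein for export at a very high rate, they depend on a large endoplasmic reticulum, on amino acid supply and on autophagy. Part of their secretory output, such as the lectin Reg3g, is known to be induced by gut microbes.

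The Paneth cell label held in all 7 libraries, with Lyz1, Defa24, Itln1, Ang4 and Mmp7 among the abundant transcripts. Under TMM factors, explained below, 6 of 7 marker genes were higher in germ-free mice, and Kit, a gene of the sort gate, did not pass. With library totals 3 were higher and 1 lower. Cd24a, also of the sort gate, then had a log2 change of 0.03 (adjusted p = 0.867, edgeR). Totals ran from 12089481 to 16896714 counts in the antibiotics libraries and from 10754681 to 14133377 in the germ-free libraries, and 17468 to 18072 genes against 15098 to 15536 genes had at least 1 count. Germ-free replicate 2 stood apart in several measures below, and calls lost without it are given beside the results. The design text calls the libraries biological replicates, and p-values measure the spread between these samples. With bulk RNA, fewer cells of a type and less RNA per cell cannot be told apart.

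Counts were divided among gene classes in different proportions in the 2 groups. The 28 Defa genes, which encode the α-defensins, held 25.1, 32.8, 31.8 and 27.3% of all counts in antibiotics replicates 1 to 4 and 44.0, 44.5 and 42.8% in germ-free replicates 1 to 3. The lowest germ-free share lay above the highest antibiotics share. The means were 29.3% and 43.8%, a difference of 14.5 percentage points with an exact two-sided permutation p of 0.0571, the smallest that 35 regroupings of 3 against 4 libraries allow. SPF libraries on the same water held 24.1 to 33.5%, so that the antibiotics libraries were within the SPF range and the germ-free libraries above it. Other granule products, a list of 11 genes led by Lyz1 and Itln1, added 13.3 to 17.2% of counts with antibiotics and 19.7 to 23.1% in germ-free mice.

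The remaining classes moved in both directions. Genes outside the classes named here fell from 42.7 to 52.5% of counts in the antibiotics libraries to 24.7 to 25.8% in the germ-free libraries. The 20 most abundant genes held 42.7 to 52.9% against 70.9 to 71.8%. The 18S ribosomal RNA genes took 1.63 to 2.03% against 4.28 to 6.57%, and mitochondrially encoded genes 1.84 to 2.67% against 0.599 to 1.21%. Germ-free replicate 2 had both the highest 18S share and the lowest mitochondrial share of the 7 libraries. The parts of ribosomal RNA carry-over and of RNA quality in the results that follow were not tested. The 18S share did not overlap between the groups. A fit with the 18S percent as a term, given for some results below, therefore also takes up group difference. Calls lost in that fit do not show where a change came from.

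**Figure D1:**
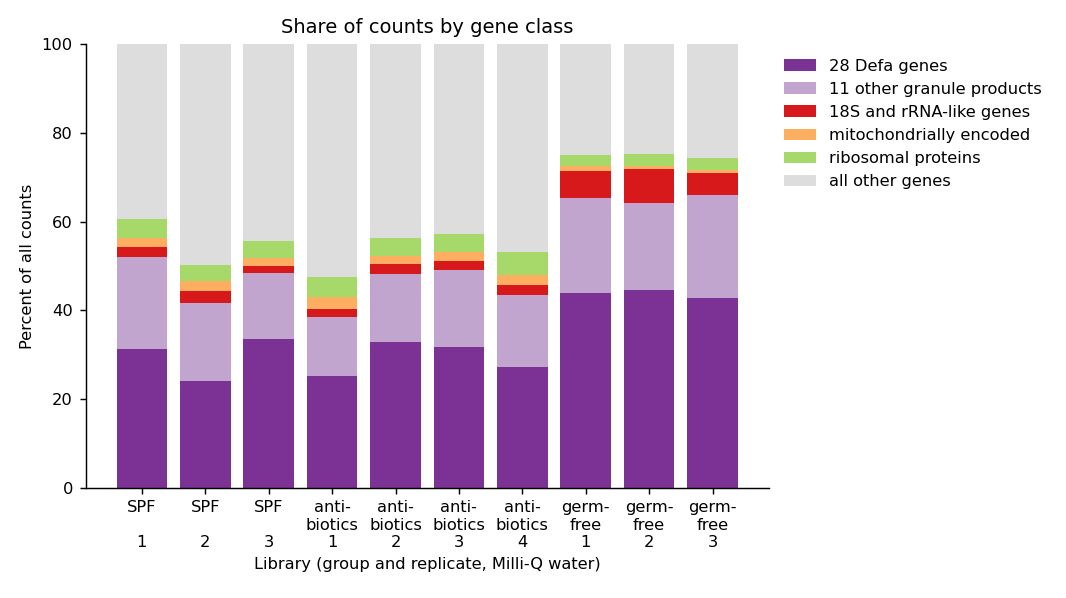
Stacked bars give the percent of all counts on each gene class (y axis) in each library on Milli-Q water (x axis, group and replicate), with SPF libraries as background. Defa genes hold 42.8 to 44.5% in the 3 germ-free libraries and 25.1 to 32.8% in the 4 antibiotics libraries, and all other genes shrink to 24.7 to 25.8%.

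This composition decides which way most genes appear to move. TMM factors, which scale libraries so that the bulk of genes is level, were 1.23 to 1.49 for the antibiotics libraries and 0.629 to 0.661 for the germ-free libraries. Library totals, which treat every count alike, instead give each gene's share of all deposited counts, those of ribosomal RNA included. Of 13070 genes with enough counts, 2905 (22.2%) were called under TMM factors by the quasi-likelihood test of edgeR at an adjusted p under 0.05, 1637 (12.5%) higher and 1268 (9.7%) lower in germ-free mice. With library totals 10334 genes (79.1%) passed, of which 66 (0.505%) were higher and 10268 (78.6%) lower. Over all genes tested, the median change was -0.02 under TMM factors and -1.05 under library totals, and the median shift between the scalings was 1.04 (all log2). Under both scalings 1334 genes passed in the same direction, the 66 higher and the 1268 lower ones. Every gene called lower under TMM factors was thus also lower with library totals, so that step does not tell lower calls apart. A change of at least 2-fold was reached by 700 called genes, 334 higher and 366 lower. The libraries of the groups did not overlap for 4214 genes (32.2%), with 2204 (16.9%) above and 2010 (15.4%) below in germ-free mice. In the text below a fold change is germ-free minus antibiotics on the log2 scale under TMM factors unless library totals are named, values are CPM (counts scaled to a common library size by TMM), and the change of a gene under library totals is to be read against the median of -1.05. Counts of list members are likewise to be read against the 12.5% higher and 9.7% lower of all genes tested, and with library totals against 0.505% higher and 78.6% lower.

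**Figure D2:**
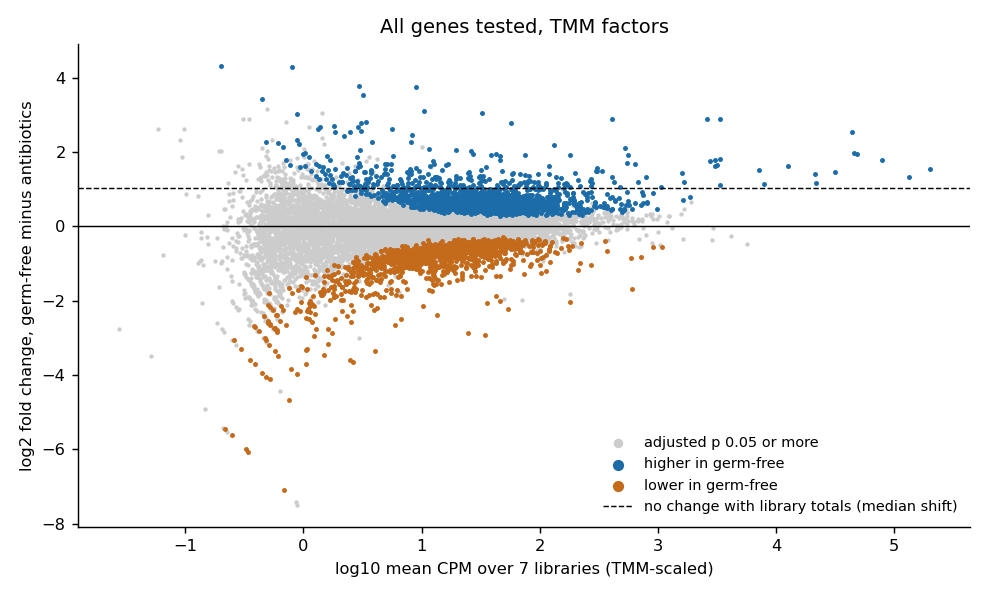
Each point is a gene, with its log10 mean CPM over the 7 libraries (x axis) and its log2 fold change, germ-free minus antibiotics, under TMM factors (y axis). Blue and orange points passed an adjusted p of 0.05 as higher (1637) and lower (1268), and the dashed line lies at 1.04, where a gene at the median shift would show no change with library totals.

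The α-defensin genes rose as a family. Of the 28 listed, 20 had enough counts to be tested, and all 20 were higher in germ-free mice against the background of 12.5% for all genes, with a median log2 fold change of 1.45 and a range of 1.06 to 1.98. With library totals 12 of the 20 stayed higher, none was lower, and the median was 0.43. The 8 untested members, Defa2, Defa20, Defa23, Defa31, Defa32, Defa33, Defa36 and Defa37, had few or no counts in every library. Defa genes lie close together on chromosome 8 and several are near-identical, and the treatment of reads that fit several genes is not known. Such reads may have been left out, split or counted more than once, so the values of single members and the Defa share are uncertain, and few counts for a member do not show low expression.

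Defa24 (ENSMUSG00000064213, chr8:22224506-22225490), the most abundant member, had 83300, 126000, 129000 and 102000 CPM in antibiotics replicates 1 to 4 and 320000, 328000 and 317000 CPM in the germ-free replicates. The groups did not overlap, and the germ-free libraries lay within a narrow band. The fold change was 1.55 ± 0.23 (SE, adjusted p = 7.41e-05, edgeR), or 2.92-fold, and 0.52 with library totals (adjusted p = 0.000317). Defa38 had the largest fold change of the tested members, with 16700, 24700, 21800 and 16900 CPM against 75300, 83500 and 78200 CPM, 1.98 ± 0.21 (adjusted p = 1.41e-06) and 0.95 with library totals. Defa17 had 1330 to 1970 CPM in the antibiotics and 4970 to 6040 CPM in the germ-free libraries (1.81 ± 0.21). Defa41, a low-abundance member, had 14 to 20 CPM against 86.6, 74.7 and 39 CPM (1.91 ± 0.24), so that germ-free replicate 3 was lower than the other two. The expressed pseudogene Defa-ps6 had 70.8, 95.9, 91.1 and 72.1 CPM against 354, 302 and 277 CPM (1.91 ± 0.17, adjusted p = 2.1e-07), and its reads cannot be told from those of the coding copies with certainty.

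Granule products outside the defensin family behaved alike, with 10 of 11 higher, none lower and a median of 1.64. With library totals 6 were higher, 1 was lower and the median was 0.60. Itln1, intelectin-1, which binds microbial glycans, had 17000, 25300, 23300 and 20900 CPM with antibiotics and 84600, 83400 and 83400 CPM in germ-free mice (1.96 ± 0.23, adjusted p = 6.89e-06, 3.88-fold), and it remained higher at 0.93 with library totals. Lyz1, the lysozyme of Paneth granules, had 61000, 80100, 98100 and 85700 CPM against 202000, 185000 and 221000 CPM (1.32 ± 0.27, adjusted p = 0.00129). Its library-total change of 0.30 did not pass (adjusted p = 0.0782). Among the most abundant granule genes the rise in share of counts therefore passed for Defa24 and Itln1 and not for Lyz1. The lipase partners colipase (Clps) and Pnliprp2 rose by 1.80 ± 0.21 and 1.76 ± 0.20, Clps from 1200 to 1680 CPM to between 4860 and 5450 CPM and Pnliprp2 from 1140 to 1730 CPM to between 4490 and 4740 CPM. The angiogenin Ang4 and the serine protease Habp2 were higher by 1.64 ± 0.23 and 1.34 ± 0.16. Mptx1, a pentraxin, was the exception at -0.50 (adjusted p = 0.457), with 4.41 to 6.86 CPM against 2.89 to 6.09 CPM.

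Pglyrp1, a peptidoglycan recognition protein that kills bacteria, was among the genes with the smallest p. It had 231, 316, 236 and 240 CPM with antibiotics and 864, 1110 and 911 CPM in germ-free mice, a rise of 1.91 ± 0.17 (adjusted p = 2.1e-07) that held at 0.87 with library totals. Nucb2, which encodes the calcium-binding protein nucleobindin-2, had 61.4, 68, 62.6 and 60.2 CPM against 194, 200 and 197 CPM (1.64 ± 0.14, adjusted p = 2.1e-07, and 0.61 with library totals). Its libraries varied little within either group. The Wnt receptor Fzd9 rose by 1.78 ± 0.16, from 18.3 to 24.5 CPM to between 73.5 and 84.2 CPM. Guca2b, the precursor of uroguanylin, a peptide that regulates intestinal fluid, rose by 1.70 ± 0.16, from 237 to 344 CPM to between 805 and 992 CPM. Together with Defa-ps6 these were the 5 named rises with the smallest p that also passed with library totals. SPF means of 252 CPM for Pglyrp1, 74.1 CPM for Nucb2, 22.4 CPM for Fzd9 and 268 CPM for Guca2b lay close to the antibiotics values.

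**Figure D3:**
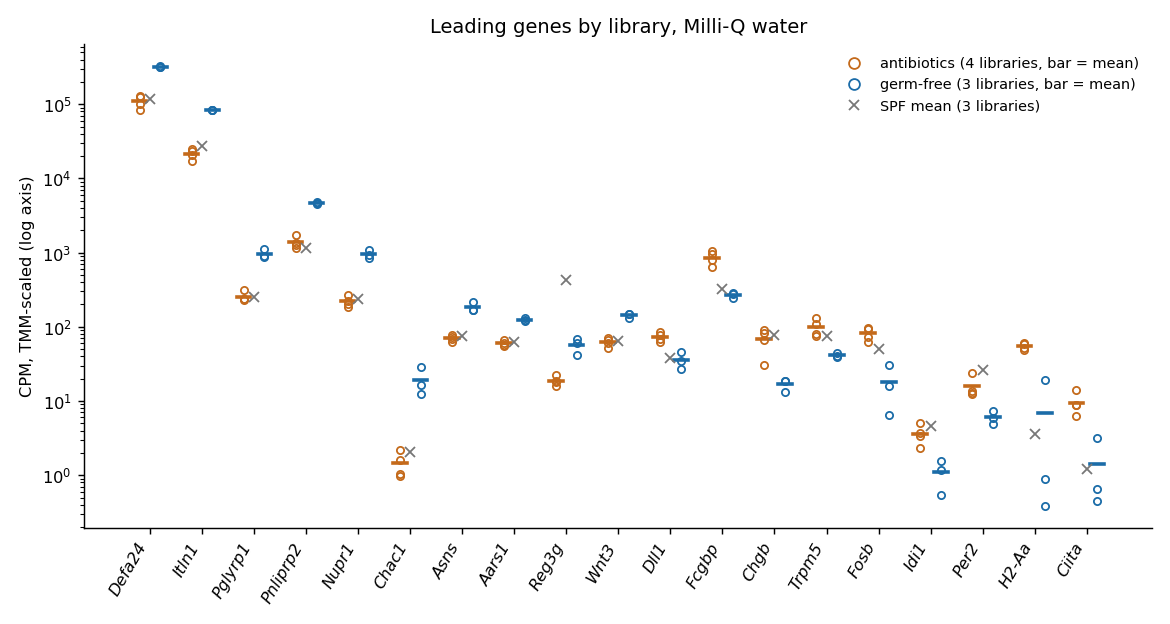
TMM-scaled CPM on a log axis (y axis) of genes described in the text (x axis), with circles for single libraries, bars for group means and crosses for the SPF mean. Defa24 to Wnt3 have all 3 germ-free libraries above the 4 antibiotics libraries, and Dll1 to Ciita have them below.

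Genes of the integrated stress response were raised in part. This pathway lowers general translation when amino acids are short or the endoplasmic reticulum is strained, and its transcription factor ATF4 induces genes of amino acid synthesis, import and tRNA charging. Of 29 tested members, 15 were higher and none lower, with a median of 0.62, while with library totals 6 were higher and 10 lower (median -0.42). Chac1, a glutathione-degrading enzyme and a classical ATF4 target, had 1.05, 2.16, 1.58 and 0.972 CPM with antibiotics and 16.4, 12.6 and 28.5 CPM in germ-free mice. That was the largest rise among the named genes at 3.75 ± 0.61 (adjusted p = 0.000195, 13.5-fold), with 2.73 under library totals. Behind these values stood 20 to 33 counts per antibiotics library and 85 to 266 counts per germ-free library. Nupr1, a stress-induced nuclear protein, had 185, 270, 220 and 204 CPM against 843, 1070 and 928 CPM (2.11 ± 0.22, adjusted p = 1.41e-06, and 1.08 with library totals). Its SPF mean was 235 ± 27.7 CPM (SD, n = 3), near the antibiotics level.

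Several of the other called members were enzymes of amino acid synthesis. Asns, asparagine synthetase, had 63.1, 73.7, 77.5 and 67.8 CPM against 169, 171 and 219 CPM (1.40 ± 0.15, adjusted p = 2.16e-06). Mthfd2, an enzyme of mitochondrial one-carbon metabolism, had 36.2, 39.5, 33.5 and 28.9 CPM against 98, 94.7 and 80.2 CPM (1.40 ± 0.14). Pycr1, which makes proline, had 32.5, 50.2, 41 and 35.8 CPM against 108, 101 and 109 CPM (1.41 ± 0.15). None of the 3 enzymes overlapped between the groups under TMM factors. Each also passed as higher with library totals, at 0.38 for Asns, 0.36 for Mthfd2 (adjusted p = 0.0484, edgeR) and 0.39 for Pycr1. Under that scaling the libraries of the groups overlapped for Mthfd2 and Pycr1. The list was not raised as a whole, since 14 members, among them Ddit3, Sesn2, Ppp1r15a and Vldlr, did not pass.

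Aminoacyl-tRNA synthetases, which charge tRNAs with their amino acids, were higher for 14 of 20 cytosolic members and lower for none, with a median of 0.51. With library totals none was higher and 13 were lower (median -0.53). Aars1, the alanyl-tRNA synthetase, had 60.6, 67.3, 55.2 and 57.5 CPM against 118, 124 and 132 CPM (1.05 ± 0.14, adjusted p = 2.77e-05). Its change of 0.01 with library totals was a held share of counts where the typical gene lost share. Cars1 for cysteine had 28.6 to 37.4 CPM against 69.1 to 73.8 CPM (1.15 ± 0.20), Gars1 for glycine 53.3 to 68.8 CPM against 103 to 118 CPM (0.85 ± 0.12), and Sars1 for serine 66.1 to 83.7 CPM against 111 to 147 CPM (0.81 ± 0.14). The direction of Gars1 and Sars1 turned with library totals, to -0.20 and -0.23, without passing the threshold. With the 18S percent as a term 7 of the 20 synthetases were higher.

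ATF4 and C/EBP proteins bind a composite element with the letters TGATGNAA, and the 250 bases before the start of the annotated canonical transcript were searched for it on both strands in the GRCm39 genome. It was found in 8 of the 29 tested stress response promoters (27.6%), in 2 of the 20 synthetase promoters (10%), in 251 of the 11965 tested protein-coding promoters (2.1%) and in 737 of all 21757 protein-coding promoters (3.39%). A match is a description of letters and not of binding. The stress response list collects known genes of the ATF4 pathway, so its higher share does not bear on the changes in these data. Ddit3 and Vldlr, which did not pass, also held a match. The 3 of 9 searched promoters of named stress response and synthetase genes that held it are printed 5′ to 3′ on the strand of the gene, because they belong to genes whose rises are given above, and capitals mark the matches. The windows are chr2:119181439-119181688 (plus strand) for Chac1, chr11:120534599-120534848 (minus strand) for Pycr1 and chr8:111760258-111760507 (plus strand) for Aars1.
Chac1: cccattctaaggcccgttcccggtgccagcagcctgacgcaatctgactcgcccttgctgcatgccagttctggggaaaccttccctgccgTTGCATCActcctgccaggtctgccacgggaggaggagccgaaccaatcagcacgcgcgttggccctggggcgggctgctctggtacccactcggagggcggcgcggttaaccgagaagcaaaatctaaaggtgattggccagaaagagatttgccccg
Pycr1: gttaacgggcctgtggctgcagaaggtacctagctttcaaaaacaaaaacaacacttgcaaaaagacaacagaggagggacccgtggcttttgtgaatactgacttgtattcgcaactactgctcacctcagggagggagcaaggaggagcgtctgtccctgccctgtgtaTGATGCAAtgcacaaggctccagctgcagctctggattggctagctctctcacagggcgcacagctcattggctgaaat
Aars1: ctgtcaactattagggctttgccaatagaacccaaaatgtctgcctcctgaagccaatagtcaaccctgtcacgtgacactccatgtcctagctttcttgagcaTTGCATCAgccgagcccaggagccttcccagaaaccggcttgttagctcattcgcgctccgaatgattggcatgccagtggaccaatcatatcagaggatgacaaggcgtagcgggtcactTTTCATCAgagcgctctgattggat
In Chac1 the match lies on the opposite strand and begins 159 bases before the start, and in Pycr1 it reads along the gene from 79 bases before the start. Aars1 has a pair of matches on the opposite strand, at 146 and 25 bases before the start. The promoters of Nupr1, Asns, Mthfd2, Cars1, Gars1 and Sars1 held no match, which says only that these letters are not in this window.

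Among genes of the endoplasmic reticulum translocon and N-glycosylation, 13 of 29 were higher and none lower (median 0.37), and 16 did not pass. With library totals 22 were lower (median -0.67), a share near the 78.6% of all genes. Dad1, a subunit of the oligosaccharyltransferase, had 63 to 76.3 CPM against 135 to 147 CPM (1.02 ± 0.13, adjusted p = 8.59e-06), and Tram1, a translocation accessory protein, had 87.6 to 96.6 CPM against 168 to 214 CPM (1.01 ± 0.16), with changes of -0.02 and -0.03 under library totals. Of 25 unfolded protein response genes, 7 were higher, none lower and 18 not called (median 0.28). Under library totals 23 were lower, a share above the 78.6% of all genes. Herpud1, which serves the degradation of misfolded proteins, led them with 156 to 184 CPM against 348 to 443 CPM (1.27 ± 0.18, and 0.23 with library totals). The calls of Dnajc3, Edem1 and Manf, at 0.52, 0.45 and 0.54, were each lost in several fits that left out 1 library, and of the 7 higher members 1 to 3 remained in number without any 1 library other than antibiotics replicate 1. With the 18S percent as a term 6 translocon genes and 2 unfolded protein response genes were higher. Bhlha15 (Mist1), a transcription factor of secretory cells that enlarges the secretory apparatus, had 111 to 132 CPM against 247 to 260 CPM (1.05 ± 0.14) and 0.01 with library totals, and Foxa3 rose by 0.99 ± 0.17, or -0.05 with library totals. Klf4 was lower at -0.85 ± 0.19, the only lower member of 11 secretory lineage transcription factors, 3 of which were higher. The third, Spdef (0.71 ± 0.25, adjusted p = 0.0407), lost its call in each of the 7 fits that left out 1 library, with an adjusted p of up to 0.11.

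Autophagy genes, whose products deliver cell contents to the lysosome and in Paneth cells bear on granule secretion, were higher for 9 of 26 and lower for none (median 0.35). With library totals none was higher and 17 were lower (median -0.69), a share below the 78.6% of all genes. Map1lc3a, an LC3 protein of the autophagosome, had 5.55 to 6.90 CPM against 18.5 to 20 CPM (1.64 ± 0.25, and 0.60 with library totals). Gabarapl1 and Gabarap of the same family rose by 1.37 ± 0.21 and 1.10 ± 0.13, and Atg7, the E1-like enzyme that activates them, rose by 1.07 ± 0.13. Under library totals these stood at 0.35, 0.05 and 0.04 and did not pass. Subunits of the vacuolar ATPase, the proton pump of lysosomes and secretory granules, were higher for 8 of 16 (median 0.42), with Atp6v0d1 at 0.95 ± 0.16 and Atp6v1d at 0.80 ± 0.16. With library totals the direction turned, to -0.10 and -0.24 for these subunits, and 14 of 16 were lower, a share above that of all genes. With the 18S percent as a term 1 subunit was higher.

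In the large housekeeping complexes most members did not pass, and the counts of those called depended on single libraries. Cytosolic ribosomal proteins were higher for 27 of 82 (median 0.27), nuclear-encoded subunits of oxidative phosphorylation for 22 of 79 with 1 lower (median 0.21), mitochondrial ribosomal proteins for 15 of 76 (median 0.25) and proteasome subunits for 11 of 37 (median 0.31). Without germ-free replicate 2 the counts higher were 9, 7, 3 and 1 in the same order in a fit that called 982 of 13365 genes higher, and without antibiotics replicate 3 they were 15, 14, 7 and 4. Without germ-free replicate 3 the last 3 counts were 13, 9 and 4, oxidative phosphorylation had 14 without antibiotics replicate 1, and the proteasome had 7 and 6 without antibiotics replicates 2 and 4. With the 18S percent as a term they were 2, 4, 2 and 2. Under library totals none of these genes was higher and 78, 71, 70 and 35 were lower, each a share above the 78.6% of all genes. Rpl23 had 378 to 489 CPM against 649, 806 and 691 CPM (0.68 ± 0.13), and Psmd4 had 43.5 to 53 CPM against 64.1, 97.9 and 73.5 CPM (0.72 ± 0.16), with replicate 2 the highest of the germ-free libraries in both. Of the 7 tested mitochondrially encoded genes mt-Nd5 was lower, at -0.82 ± 0.26 (adjusted p = 0.0277), and its call was lost without any of 4 libraries.

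Of 6 tested ligands that Paneth cells present to stem cells 1 was higher, 2 were lower and 3 did not pass (median -0.08). Wnt3, the Wnt ligand of the crypt base, had 51.4, 69.7, 65.5 and 61.3 CPM with antibiotics and 133, 151 and 147 CPM in germ-free mice (1.21 ± 0.15, adjusted p = 7.45e-06, and 0.18 with library totals). The Notch ligands Dll1 and Dll4, which keep neighbours from the secretory fate, were lower. Dll1 had 86.2, 62.1, 68.9 and 76.8 CPM against 45.2, 26.6 and 35 CPM (-1.04 ± 0.19, adjusted p = 0.000636), and Dll4 had 33.8 to 41.4 CPM against 19.8 to 28.7 CPM (-0.63 ± 0.15). Neither group overlapped the other for these 3 ligands. With library totals, where every gene called lower under TMM factors was lower, Dll1 and Dll4 stood at -2.09 and -1.66. In SPF libraries Dll1 averaged 37.7 CPM and Dll4 22.9 CPM, close to the germ-free values, and both were higher with antibiotics than in SPF mice (0.97 ± 0.19, adjusted p = 0.0221, and 0.73 ± 0.14, adjusted p = 0.0218, on the log2 scale). Germ-free minus SPF did not pass for either, at -0.08 (adjusted p = 0.815) and 0.10 (adjusted p = 0.678). Wnt3 in contrast averaged 63.5 CPM in SPF libraries, near the antibiotics level. Neither Notch ligand was called with the 18S percent as a term.

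Genes known to respond to microbes passed the test in 5 of 18 cases, 2 higher and 3 lower, near the background of 22.2% for all genes (12.5% higher and 9.7% lower). Reg3g, a lectin that kills Gram-positive bacteria, had 18, 15.9, 22.4 and 18.5 CPM with antibiotics and 60.1, 68.8 and 41.3 CPM in germ-free mice (1.60 ± 0.35, adjusted p = 0.00278). Both groups lay far below the SPF mean of 433 ± 67.3 CPM (SD, n = 3), by -4.53 and -2.93 on the log2 scale. The lower Reg3g level thus belonged to the antibiotics group, although its library-total change of 0.56 did not pass (adjusted p = 0.101). Reg3b, its paralogue, had 1.65 to 4.13 CPM against 3.32 to 7.69 CPM and did not pass (0.96 ± 0.54, adjusted p = 0.204), with an SPF mean of 103 CPM. Lypd8, which keeps flagellated bacteria off the epithelium, rose by 0.78 ± 0.19 but stood at -0.26 with library totals, and its call was lost without germ-free replicate 2. Pigr, the receptor that carries IgA into the lumen, and Ccl28, which attracts IgA-secreting cells, were lower by -0.54 ± 0.14 and -1.04 ± 0.23, Ccl28 with 25.6 to 33.4 CPM against 10.6 to 15.3 CPM.

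NF-kB targets and innate sensors numbered 1 higher, Pglyrp1, and 4 lower of 19, with a median of -0.50. The lower members were feedback inhibitors and inducible genes of the pathway. Tnfaip3 (A20), which shuts NF-kB signalling down, had 6.86 to 9.31 CPM against 2.51 to 4.40 CPM (-1.11 ± 0.24), Birc3 had 9.61 to 12.4 CPM against 4.14 to 7.81 CPM (-0.91 ± 0.20), and Nfkbiz had 20 to 26.1 CPM against 9.47 to 12.8 CPM (-0.94 ± 0.25). All 3 were also lower with library totals, as was every gene called lower under TMM factors. Without germ-free replicate 2 the call of Nfkbiz was lost and the lower calls were 2, and with the 18S percent as a term there was 1.

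Genes of antigen presentation by MHC class II were lower in part, with wide scatter among the germ-free libraries. Of 9 tested genes 4 were called lower, against 9.7% of all genes, and 1 higher, and the median was -1.95. The germ-free libraries lay below all antibiotics libraries for 7 of the 9 genes, as they did for 15.4% of all genes. The summed level was 585 to 633 CPM with antibiotics and 99.4 to 434 CPM in germ-free mice. H2-Aa, a chain of the class II molecule, had 49.3, 59.8, 58.9 and 52 CPM against 0.388, 0.887 and 19.3 CPM (-2.92 ± 1.02, adjusted p = 0.0416), so that germ-free replicate 3 was far above the other two germ-free libraries. Ciita, the transcription factor that switches these genes on, had 8.91, 6.29, 13.9 and 8.75 CPM against 0.647, 0.444 and 3.21 CPM (-2.64 ± 0.68, adjusted p = 0.00793), again with replicate 3 the highest of the germ-free libraries. In SPF libraries H2-Aa averaged 3.60 ± 4.93 CPM and Ciita 1.20 ± 0.845 CPM (SD, n = 3), near the germ-free values. Antibiotics minus SPF was 3.90 for H2-Aa (adjusted p = 0.156) and 2.93 for Ciita (adjusted p = 0.0666), neither past the threshold. The calls were fragile. Without germ-free replicate 2 none of the list was called lower under TMM factors, and without germ-free replicate 1 there was 1. Without any 1 antibiotics library 2 were called lower, and without germ-free replicate 3 there were 7. All 9 were lower with library totals, as were 78.6% of all genes. Ptprc, which marks leukocytes, was at 0.721 to 1.36 CPM with antibiotics and 0 to 0.518 CPM in germ-free mice (-1.93 ± 0.82, adjusted p = 0.093), and the part of other cells in the class II result was not tested.

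Interferon-stimulated genes were higher for 6 of 24 and lower for 1, with a median of 1.04, and these Milli-Q calls rested largely on germ-free replicate 2. Irf7, a transcription factor of the interferon response, had 10.2 to 12 CPM with antibiotics and 14, 99 and 26 CPM in germ-free mice (2.02 ± 0.59, adjusted p = 0.0165). Isg15 had 0.262 to 0.720 CPM against 1.17, 6.80 and 2.57 CPM (2.71 ± 0.82). Without that library 1 member of the list was called higher and none lower, without antibiotics replicate 3 there were 3 higher, and without germ-free replicate 1 there were 10. Zbp1, a sensor of nucleic acids, was spread more evenly at 3.00 to 6.09 CPM against 12.2, 16.4 and 9.31 CPM (1.40 ± 0.31). In the like contrast on zinc water, made in other libraries, 7 of the 24 were higher and 0 lower (median 0.98). Irf7 stood there at 1.87 ± 0.57 (adjusted p = 0.0318, edgeR) and Isg15 at 2.53 ± 0.8 (adjusted p = 0.0378). The germ-free libraries on zinc water were also scattered, with Irf7 at 6.72 to 88.5 CPM. Of 13 MHC class I genes H2-K1 was higher (0.56 ± 0.16) and its activator Nlrc5 lower (-2.57 ± 0.80), both calls lost without germ-free replicate 2 or antibiotics replicate 3, that of H2-K1 also without antibiotics replicate 4 and that of Nlrc5 without germ-free replicate 1, and H2-K1 turned to -0.48 with library totals.

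Immediate early genes, which answer stimuli within minutes and also rise during tissue dissociation, were lower for 9 of 20 and higher for none (median -0.63). Fosb had 95.7, 94.1, 73.2 and 63.2 CPM with antibiotics and 30.8, 16.1 and 6.42 CPM in germ-free mice (-2.21 ± 0.52, adjusted p = 0.00421). Ccn1 had 16.4 to 20 CPM against 4.40 to 6.06 CPM (-1.73 ± 0.36), Dusp1, a phosphatase of stress kinases, was lower by -1.40 ± 0.35, and Fos by -1.16 ± 0.30, a call lost without germ-free replicate 3. All 20 were lower with library totals, against 78.6% of all genes. Of the 9 lower calls 5 were left in number without germ-free replicate 2, 4 without germ-free replicate 3 and 0 with the 18S percent as a term.

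Sterol genes were lower in part. Among 25 genes of cholesterol synthesis and uptake 8 were lower and none higher (median -0.36), with 23 lower under library totals, 4 without germ-free replicate 2, 5 without germ-free replicate 3 and 4 with the 18S percent as a term. Lss, lanosterol synthase, had 30.2, 17.4, 21 and 20.1 CPM against 11.7, 12 and 10.6 CPM (-0.96 ± 0.24, adjusted p = 0.00607). Idi1, an isomerase of isoprenoid synthesis, had 2.36 to 5.1 CPM against 0.535 to 1.55 CPM (-1.77 ± 0.43), and the desaturase Scd2, no member of the list, had 41.9 to 92.6 CPM against 9.21 to 25.9 CPM (-1.88 ± 0.41). Of 24 genes of ketogenesis and fatty acid oxidation 6 were higher, among them Acaa2 at 67.1 to 69.8 CPM against 130 to 138 CPM (0.97 ± 0.15) and Pdk4, which restrains glucose oxidation, at 0.300 to 1.51 CPM against 8.54, 2.37 and 7.17 CPM (2.78 ± 0.66). Acaa2 stood at -0.07 with library totals and Pdk4 at 1.77, and without germ-free replicate 3 the list had 3 higher.

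Several of the genes with the largest changes were on none of the gene lists. Agt, angiotensinogen, had 17.6, 63.8, 74 and 57.6 CPM with antibiotics and 262, 257 and 202 CPM in germ-free mice (2.18 ± 0.29, adjusted p = 2.43e-05, and 1.18 with library totals). Sgk1, a kinase induced by corticosteroids and osmotic change, had 5.37 to 11.9 CPM against 28.4 to 42.2 CPM (2.05 ± 0.32), and its SPF mean of 26.1 CPM was nearer the germ-free level. Hsd11b2, which inactivates glucocorticoids, moved the other way, with 61.1, 20.2, 23.4 and 51 CPM against 9.32, 2.81 and 3.85 CPM (-2.87 ± 0.68, adjusted p = 0.00477). Cyp2b10, a cytochrome P450 induced through the xenobiotic receptor CAR, had 1.82 to 4.06 CPM against 11.4 to 20.6 CPM (2.45 ± 0.27, and 1.40 with library totals). Of 18 tested genes on the xenobiotic list none was higher and 1, Ahr, was lower (-0.88 ± 0.25), a call lost without germ-free replicate 2 or 3 (adjusted p up to 0.0858). Scin, an actin-severing protein, had 14.5 to 26.1 CPM against 2.25 to 6.21 CPM (-2.37 ± 0.45). The 5 falls with the smallest p among named genes that also passed with library totals were L1cam, Cep295, Slco4a1, Fcgbp and Prrc2c, and L1cam, a cell adhesion molecule, had 27.2 to 44.2 CPM against 13.5 to 14.9 CPM (-1.33 ± 0.16).

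Clock, metal and transferase genes were called in both directions. Of 17 clock genes 2 were higher and 5 lower, with Per2, a repressor of the clock, at 24, 12.6, 12.7 and 13.6 CPM against 4.92 to 7.4 CPM (-1.38 ± 0.30) and Clock, an activator of Per genes, at 22.7 to 26.1 CPM against 12.1 to 17.6 CPM (-0.66 ± 0.17). Metallothioneins and zinc transporters were higher for 5 of 26 and lower for 1, led by Slc30a2, the transporter that loads zinc into Paneth cell granules, at 55.6 to 70.9 CPM against 135 to 147 CPM (1.12 ± 0.16, and 0.09 with library totals). Mt1 had 31.9 to 50.1 CPM against 68.6, 129 and 101 CPM (1.16 ± 0.31, adjusted p = 0.00882) and Mt2 8.54 to 21.3 CPM against 13.9, 52.7 and 31.4 CPM (1.12 ± 0.39, adjusted p = 0.0424). Both calls were lost without germ-free replicate 2, and that of Mt2 also without germ-free replicate 3 or antibiotics replicate 2, 3 or 4. O-glycan, fucosyl and sialyl transferases were higher for 4 and lower for 2 of 25, near the 12.5% and 9.7% of all genes, with Fut1 at 5.60 to 11.3 CPM against 23.1 to 24.9 CPM (1.52 ± 0.27) and B4galnt2 at 42.9 to 109 CPM against 28.8 to 43 CPM (-1.01 ± 0.27). Nrf2 targets were higher for 3 of 19 (Taldo1 0.72 ± 0.14), cytosolic heat shock genes for 2 of 17 (Bag3 0.59 ± 0.16), both near the 12.5% of all genes, and no gasdermin of 4 passed. Without germ-free replicate 2 the calls of Clock and B4galnt2 were lost, and there were 1 higher and 2 lower clock genes, 2 higher metal genes, 0 lower transferases and 1 higher Nrf2 target.

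**Figure D4:**
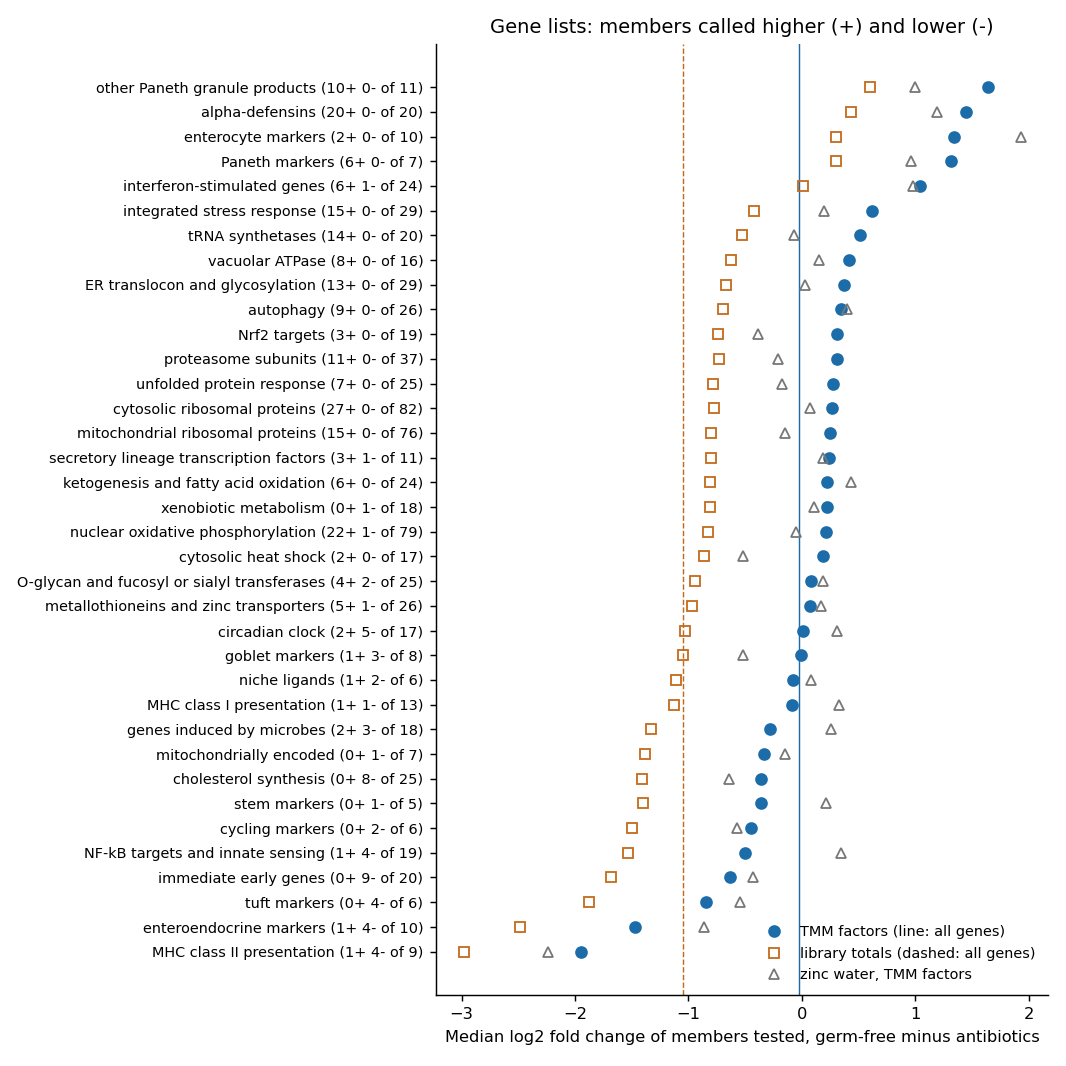
Median log2 fold change, germ-free minus antibiotics (x axis), of the tested members of each gene list with at least 5 of them (y axis, with members called higher and lower), under TMM factors (circles), library totals (squares) and, on zinc water, TMM factors (triangles). Lines mark the median of all genes at -0.02 and -1.05. Other Paneth granule products (1.64) and alpha-defensins (1.45) lie farthest right and MHC class II presentation (-1.95) farthest left.

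Markers of other epithelial cells also differed, and their part in the gene groups above was not tested. Goblet markers summed to 10300 to 11000 CPM with antibiotics and 16500 to 18800 CPM in germ-free mice, with 1 of 8 higher and 3 lower. As a share of all counts the sum was instead lower in germ-free mice, at 1.07 to 1.22% against 1.32 to 1.53% with antibiotics. With library totals 0 of the 8 were higher and 5 lower. The sum was led by Spink4, a peptide also made by Paneth cells, which rose by 1.15 ± 0.18 (0.12 with library totals). The 3 lower members moved the opposite way, while 4, among them the mucin Muc2, did not pass, and the median of the list was -0.01. Fcgbp had 1040, 798, 640 and 959 CPM against 289, 243 and 274 CPM (-1.68 ± 0.24, adjusted p = 4.74e-05), Zg16 had 166 to 349 CPM against 30.4 to 103 CPM (-2.02 ± 0.51), and Clca1 had 35.5 to 65.9 CPM against 5.35 to 17.6 CPM (-2.07 ± 0.43). Fcgbp was higher with antibiotics than in SPF libraries (1.43 ± 0.24, adjusted p = 0.00473), whose mean was 319 ± 47.2 CPM (SD, n = 3), while germ-free minus SPF did not pass (-0.25, adjusted p = 0.485).

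Enteroendocrine markers were lower for 4 of 10 and higher for 1, with a median of -1.47 and sums of 82.3 to 182 CPM against 61.9 to 92 CPM, which overlap. Chgb, a protein of hormone granules, had 65.6, 30.8, 91.9 and 82 CPM against 18.8, 18.5 and 13.4 CPM (-2.01 ± 0.40), and Gcg, the proglucagon gene, 6.16 to 29.8 CPM against 1.61 to 6.21 CPM (-2.14 ± 0.52), whereas Sct, secretin, was higher at 0.62 ± 0.20 and at -0.43 with library totals. The call of Sct was lost without antibiotics replicate 2 or 3 or germ-free replicate 2 (adjusted p up to 0.192). Without antibiotics or germ-free replicate 3 the lower markers were 2. Tuft cell markers were lower for 4 of 6 (median -0.84), with sums of 243 to 392 CPM against 150 to 152 CPM, and for 2 without germ-free replicate 1 or 2. The tuft cell ion channel Trpm5 had 79.8, 74.1, 110 and 132 CPM against 44.7, 38.8 and 39.8 CPM (-1.27 ± 0.29), and Dclk1 36.2 to 81.9 CPM against 17.5 to 30.4 CPM (-1.34 ± 0.34), whose call was lost without germ-free replicate 2.

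Enterocyte markers summed to 149 to 204 CPM against 180, 716 and 298 CPM in germ-free replicates 1 to 3. Apoa4 and Apoa1, apolipoproteins of lipid-absorbing enterocytes, were the 2 of 10 called higher, with Apoa4 at 2.40 to 16 CPM against 18.5, 127 and 50.5 CPM (3.05 ± 1.00, adjusted p = 0.0317). Both calls were lost in 5 of the 7 fits that left out 1 library, those without antibiotics replicate 1, 3 or 4 or germ-free replicate 2 or 3. Among 5 stem cell markers Axin2, a Wnt target, was lower (-0.66 ± 0.19), and among 6 cycling markers Top2a and Ccnb1 were lower (-0.48 ± 0.15 and -0.60 ± 0.22), all 3 calls lost without germ-free replicate 2, that of Top2a also without germ-free replicate 1 and that of Ccnb1 without any of 5 libraries. Immune markers summed to 5.35 to 14.5 CPM against 9.17 to 11.3 CPM with Csf1r at 0, and stromal markers to 1.35 to 2.87 CPM against 0.259 to 0.887 CPM with Col1a2, Col3a1 and Acta2 at 0. Red blood cell markers reached at most 0.048 CPM. Of 5 genes that show sex none passed, and the Y-linked Ddx3y and Eif2s3y were present in every library of both groups.

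Transcripts that share sequence with ribosomal RNA were among the largest rises. The 18S gene Rn18s-rs5 had 10900, 15700, 15400 and 15300 CPM against 80800, 105000 and 64700 CPM (2.54 ± 0.42, adjusted p = 0.000227). Mir6236 and Lars2, to which reads of ribosomal RNA can align, rose by 2.88 ± 0.34 and 2.88 ± 0.35, with Lars2 at 728 to 1160 CPM against 5350 to 8470 CPM. Each was also higher with library totals, at 1.51, 1.84 and 1.83 for Rn18s-rs5, Lars2 and Mir6236. Adding the 18S percent as a term gave 1300 called genes, 797 higher and 503 lower. Of these, 1092 were among the 2905 calls of the fit reported.

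On zinc water the same contrast could be made in 8 other libraries, 4 germ-free and 4 antibiotics, and it shares no library with the Milli-Q contrast. There 1719 genes (13.2%) passed under TMM factors, 923 higher (7.06%) and 796 lower (6.09%). Both contrasts called 836 genes, 828 of them in the same direction, which is 28.8% of the Milli-Q calls and 48.6% of the zinc calls. Of the 2905 Milli-Q calls 2460 (84.7%) had the same sign on zinc water, where their median absolute log2 fold change was 0.339 against 0.704 on Milli-Q water. The α-defensins were higher for 18 of 20 (median 1.19), other granule products for 9 of 11 (median 1.00), autophagy genes for 11 of 26 and stress response genes for 10 of 29, with 2 lower. Cholesterol genes were lower for 16 of 25 and MHC class II genes for 2 of 9. Several lists with higher calls on Milli-Q water did not recur. Mitochondrial ribosomal proteins had 0 higher and 10 lower of 76, proteasome subunits 0 and 6 of 37, and heat shock genes 1 and 7 of 17. Unfolded protein response genes had 5 higher and 7 lower of 25 (median -0.17). Higher calls were 1 of 82 for cytosolic ribosomal proteins, 1 of 79 for oxidative phosphorylation and 2 of 29 for the translocon. Defa24, Itln1 and Pglyrp1 rose there by 1.37 ± 0.22, 1.43 ± 0.22 and 1.21 ± 0.16, and Reg3g by 1.57 ± 0.33 (adjusted p = 0.00292).

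The contrast itself differed between the waters for 27 genes (0.207%), 18 of them (0.138%) higher and 9 (0.0689%) lower on Milli-Q than on zinc water. Of the 20 tRNA synthetases 2, Aars1 and Gars1, differed between the waters. None of the 20 passed on zinc water, where their median was -0.07, and for the other 18 a difference between the waters did not pass. Aars1 stood at 1.05 ± 0.14 on Milli-Q and -0.02 ± 0.13 on zinc water, a difference of 1.07 ± 0.20 (adjusted p = 0.0233), and Gars1 differed by 0.84. Mthfd2 differed by 1.03 ± 0.20 and Nucb2 by 1.07 ± 0.19, with zinc-water changes of 0.37 and 0.57. The butyrophilin-like gene Btnl4, of a family that shapes intraepithelial T cells, had 13.9 to 17.8 CPM against 5.89 to 10.7 CPM on Milli-Q water (-1.03 ± 0.18) and did not change past the threshold on zinc water (0.31 ± 0.16), a difference of -1.34 ± 0.25. The neighbouring pseudogene Btnl5-ps differed by -1.33, and the 2 may share reads. This count was unstable. It fell to 0 when antibiotics replicate 4 or germ-free replicate 2 or 3 on Milli-Q water was left out, as it did when germ-free replicate 2 or antibiotics replicate 1 on zinc water was left out, and it rose to 362 without germ-free replicate 1 on Milli-Q water.

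**Figure D5:**
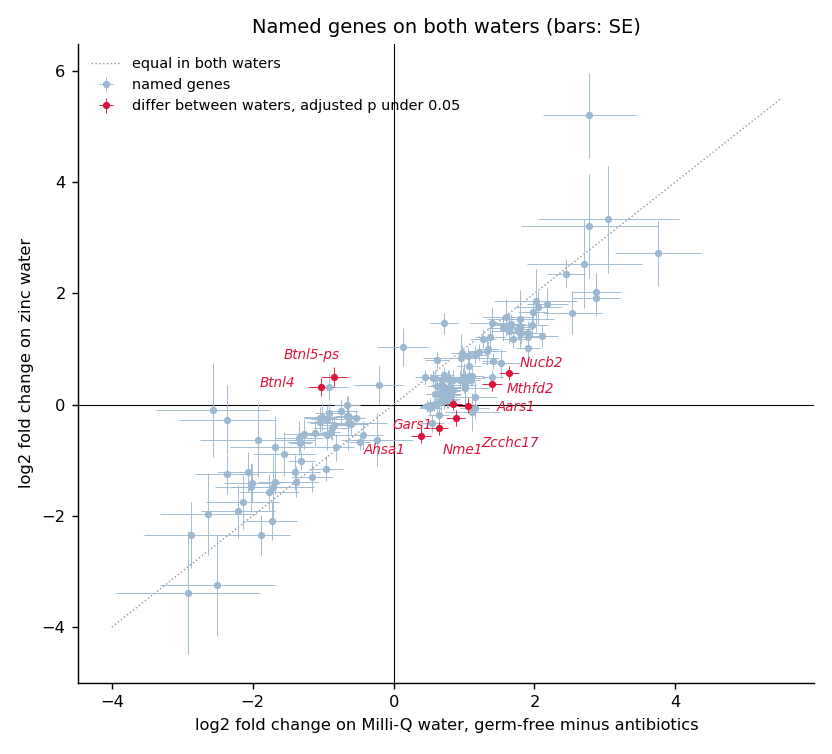
Log2 fold change, germ-free minus antibiotics, on Milli-Q water (x axis) and on zinc water (y axis) of the named genes, with bars for the standard error and the dotted line for equal changes. Red points differed between the waters at an adjusted p under 0.05, among them Aars1 (1.05 and -0.02) below the line and Btnl4 (-1.03 and 0.31) above it.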

How the data were processed

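Paneth cells sorted from mouse small intestine were profiled by bulk RNA-seq, and the authors deposited raw counts per Ensembl gene with no normalisation. Per the submitters' processing notes FastQC 0.12.0, STAR 2.7.0a and DESeq2 were used on build mm39. The tool that counted, whether it used strand and what it did with reads that fit several genes are not given in the sources used here, so near-identical Defa genes and overlapping genes (Pycr1 with Myadml2, Aars1 with Exosc6, Trpm5 with R74862, L1cam with Arhgap4) may share or lose reads. Columns were matched to samples by name, with 0 left over, and replicate numbers are those of the sample titles. Of 55414 identifiers, 54749 matched GENCODE M39 on GRCm39, and the 665 others held 0.0164% of counts.

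Counts of all 21 libraries entered 1 edgeR 4.0.16 quasi-likelihood fit (limma 3.58.1, R 4.3.3) with 6 group coefficients, TMM factors and 13070 genes left by filterByExpr, which needs enough counts in as many libraries as the smallest group holds. The fit had a common dispersion of 0.0369 and 8.52 prior degrees of freedom. Benjamini-Hochberg adjustment ran over all genes tested, with a threshold of 0.05. The same fit was made with library totals. Standard errors were the fold change divided by the square root of F. The Defa share was compared by an exact two-sided permutation test. Any 2 libraries of a group differed by far more than sampling noise, with a chi-square per gene of 13.1 to 40.5. Arithmetic and figures used Python 3.11.15, numpy 2.4.6, scipy 1.17.1 and matplotlib 3.10.9. The fits were tested on simulated data.

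Genes were named by rule among called genes whose groups did not overlap and whose mean over the 7 libraries reached 5 CPM. These were the 10 largest rises and 10 largest falls, the 5 smallest p in each direction that also passed with library totals, and in each of 41 gene lists up to 4 called members with the smallest p (where none was called, the 2 most abundant), with the limits on level and overlap not applied to list members. The 3 smallest p in each direction for the difference between waters were added, and Reg3b, Reg3g, Mt1, Mt2, Lyz1, Itln1, Defa24 and Chac1 were kept whatever their values. Some genes the rule named are not reported here. Genes of a list that are named beside its count, or for their role in a list, without meeting the rule were chosen after their values were seen. The comparison, the rule and the lists were chosen with earlier results of these data known, so no list count is independent evidence. Alternatives were DESeq2 1.42.0 and its size factors, library totals, TMM without the Defa genes, limma-voom with quality weights, no filter or 10 counts in 10 libraries, a replicate block, fits of only the libraries compared, a GC content and length correction, the 18S percent as a term and each library left out in turn.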

Additional observations from a re-analysis of the deposited data

Results flagged for a closer look

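In groups of 4 libraries, the gap between the highest or lowest library and its nearest neighbour was divided by the range of the group, and values above Dixon's 95% critical value mark a library far from the others. Of 172 such groups tested, 9 passed, and chance alone flags about 1 in 20. All concern the TMM-scaled CPM of a gene in 1 antibiotics library. Antibiotics replicate 1 was far from the other 3 for Fzd9 (0.919, low at 18.3 CPM), Gabarapl1 (0.857, low at 12.9 CPM), Rn18s-rs5 (0.917, low at 10900 CPM), Sh2d6 (0.859, low at 47.3 CPM) and Per2 (0.912, high at 24.0 CPM). Replicate 2 stood apart for Pglyrp1 (0.894, high at 316 CPM). Replicate 3 did so for Sec62 (0.935, high at 64.6 CPM) and H2-DMa (0.894, low at 13.1 CPM), and replicate 4 for Ccl28 (0.897, high at 33.4 CPM). In none of the 9 did the outlying library reach the range of the germ-free libraries.

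The 9 named genes listed here responded differently on the 2 waters by the test of the difference itself (edgeR, adjusted p of 0.0222 to 0.0335). The log2 difference, Milli-Q minus zinc, was 1.08 for Nme1, 1.12 for Zcchc17, 1.07 for Nucb2, 1.07 for Aars1, 1.03 for Mthfd2, 0.84 for Gars1 and 0.95 for Ahsa1. It was -1.34 for Btnl4 and -1.33 for Btnl5-ps. Nme1, a nucleoside diphosphate kinase, was higher in germ-free mice on Milli-Q water (0.64 ± 0.13) and lower on zinc water (-0.43), and Ahsa1, a co-chaperone of Hsp90, likewise (0.39 ± 0.14 and -0.56), though the Milli-Q call of Ahsa1 was lost in 5 of the 7 fits that left out 1 library, germ-free replicate 2 among them (adjusted p up to 0.211).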

How the results depend on the processing

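The 2905 calls on Milli-Q water became 10334 with library totals, 1300 with the 18S percent as a term and 1566 to 2770 when a library was left out, the lowest without germ-free replicate 2. Library totals without that library, a setting chosen after seeing the data, gave 9746. The other settings gave 2634 to 4301 calls. The share of calls that were higher, 56.4% in the fit reported, was 0.639% with library totals, 40.3% with no filter and 68.9% with the GC content and length correction. On zinc water 1719 calls became 8649 with library totals and 866 with only the groups compared, and leaving out a library gave 1179 to 1796. The 27 differences between waters became 3 with library totals, 323 with DESeq2, 767 with limma-voom, 323 with no filter, 94 with the GC content and length correction, 2 with only the groups compared and 0 to 362 without a library. At an unadjusted p under 0.05 the edgeR fits without a library gave 1565 to 2669 such genes. With library totals and with only the groups compared, the spread or the scale of the fit differs by construction. The 18S percent differs with the group, so its term takes up part of the contrast. Otherwise the cause was not tested. The Defa share difference of 14.5 points lay between 13.1 and 15.7 when a library was left out.

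Deviations of same-numbered replicates of the groups had correlations of -0.0967, 0.194 and 0.0277 for numbers 1 to 3. So few libraries cannot show whether the number pairs them. The numbers are those of the sample titles. The count columns number the germ-free libraries 1, 3 and 4, which sets replicates 2 and 3 beside antibiotics replicates 3 and 4, with correlations of -0.193 and 0.0631. With the replicate block 2690 genes were called on Milli-Q water, 1604 on zinc water and 15 for the difference.

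Of 144 named genes called, 73 were called in every setting other than library totals, and none changed direction there. With library totals these changed sign, all but Lyz2 and Reg3b called in the fit reported: Psmd4 -0.33, Atp6v1b2 -0.42, B4galnt1 -0.34, Atp6v0d1 -0.10, Lypd8 -0.26, Ndufa2 -0.27, Atp6v1e1 -0.45, Psmc5 -0.40, Srp68 -0.32, Ahsa1 -0.66, Atp6v1d -0.24, Dnajc3 -0.52, Dad1 -0.02, Ndufv3 -0.27, Spdef -0.33, Mrpl43 -0.52, Taldo1 -0.33, Tram1 -0.03, Acadl -0.31, Mrpl30 -0.46, Ndufa10 -0.38, Sec62 -0.18, Cpt2 -0.42, Zcchc17 -0.16, Mrps15 -0.28, Psmc2 -0.57, Gars1 -0.20, Edem1 -0.58, Rpl28 -0.36, Bag3 -0.46, Manf -0.51, Ndufa13 -0.35, Acaa2 -0.07, Nme1 -0.40, Sct -0.43, Foxa3 -0.05, Rpl21 -0.28, Slc39a11 -0.19, Mrps12 -0.37, Gstm1 -0.05, H2-K1 -0.48, Sars1 -0.23, Lyz2 -0.87, Reg3b -0.08, Psmb3 -0.53, Rpl23 -0.36, Osgin1 -0.01 and St6galnac4 -0.34. Genes under a few CPM, such as Nlrc5, Gbp7 and H2-DMb1 with 0 to 44 counts in a germ-free library, carry wide errors at this depth.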
